A study of Mus musculus with 18 samples.

Results

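The enzymes described here build cholesterol from acetyl-CoA, and 9 of them were read: Hmgcs1, Idi1, Fdps, Fdft1, Sqle, Cyp51, Nsdhl, Ebp and Dhcr7. They were chosen by name, with earlier results of these data known, so shares over all probe sets beside them are description only. Every probe set whose only annotated symbol is one of these genes was taken. This gave 9 of the 8251 genes and 14 of the 12488 probe sets of the array. Of these 14, 13 passed the filter on low signals, as did 8382 probe sets in all, and each of the 9 genes kept at least 1. Where a gene had several, the one with the highest mean signal stands for it, and the others are given beside it.

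The signals come from the brains of Aldh5a1-/- mice, called KO, and wild-type mice, called WT, with 3 animals of each genotype. Aldh5a1 encodes succinate semialdehyde dehydrogenase, which completes the breakdown of the transmitter GABA. Hippocampus, cerebellum and cortex of each animal were put on 1 Affymetrix mouse array each, 18 arrays in 6 groups of 3. KO animals carry the numbers 3363, 3389 and 3403 and WT animals the numbers 3405, 3406 and 3396, and signals are given in this order throughout. Age, sex, strain background and any treatment of the mice are not given in the sources used here. The signal is a scaled intensity on a linear scale. Aldh5a1 was assigned 0 probe sets, so genotype rests on the labels. All 18 arrays lay nearest to other arrays of their named region, and the summed signal of 7 cerebellar marker genes was 12766 to 13498 in cerebellum, against 745 to 1093 in hippocampus and cortex. In such bulk tissue, fewer cells of a type and less RNA per cell cannot be told apart.

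Cholesterol in the brain is made in place, because lipoproteins of the blood do not cross the blood-brain barrier. The early enzymes turn acetyl-CoA into mevalonate and then into isoprenoid units, which are also drawn off for dolichol, ubiquinone and protein prenylation. Squalene synthase commits the carbon to sterols, squalene is closed to lanosterol, and a series of demethylations, isomerisations and reductions ends in cholesterol. Oligodendrocytes use much of it for myelin, while astrocytes and neurons also make it. When sterols in the endoplasmic reticulum are low, SREBP transcription factors are cut free, enter the nucleus and bind sterol regulatory elements in promoters of the pathway's genes.

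Promoters of 3 of the enzymes are printed because the array results turn on these genes: Hmgcs1 and Idi1 had the largest differences between KO and WT in hippocampus and cortex, and Ebp tracked the other enzymes least closely. Each is the 250 bases before the annotated start, 5′ to 3′ on the gene's strand, from RefSeq on GRCm38.p6. They lie at chr13:119690101-119690350 on the plus strand (Hmgcs1), chr13:8885356-8885605 on the plus strand (Idi1) and chrX:8193513-8193762 on the minus strand (Ebp). Capitals mark 3 motifs, searched on both strands: the sterol regulatory element TCACNCCAC, the CCAAT box, which reads ATTGG on the other strand, and the GC box GGGCGG, which there reads CCGCCC.
Hmgcs1: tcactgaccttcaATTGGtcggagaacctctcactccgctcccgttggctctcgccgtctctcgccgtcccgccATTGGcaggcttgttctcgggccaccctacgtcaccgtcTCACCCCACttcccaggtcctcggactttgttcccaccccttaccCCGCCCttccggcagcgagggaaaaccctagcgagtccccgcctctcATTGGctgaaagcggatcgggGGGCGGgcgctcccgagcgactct
Idi1: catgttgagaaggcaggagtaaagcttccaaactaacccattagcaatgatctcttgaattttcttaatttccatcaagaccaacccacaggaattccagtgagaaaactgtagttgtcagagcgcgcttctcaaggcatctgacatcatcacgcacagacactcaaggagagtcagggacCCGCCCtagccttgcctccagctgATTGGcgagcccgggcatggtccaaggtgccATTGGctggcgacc
Ebp: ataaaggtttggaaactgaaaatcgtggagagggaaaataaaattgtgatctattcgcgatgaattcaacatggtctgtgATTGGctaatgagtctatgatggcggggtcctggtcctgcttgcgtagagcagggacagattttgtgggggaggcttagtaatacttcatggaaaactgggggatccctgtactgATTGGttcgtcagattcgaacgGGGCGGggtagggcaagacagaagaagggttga
The sterol regulatory element stood in the Hmgcs1 promoter as TCACCCCAC, 137 bases before the start. The table holds 8 windows for 6 of the enzymes, Cyp51, Nsdhl and Dhcr7 among them. The element stood in 1 of the 8, against 346 of all 32851 promoter windows of this length, or 1.05%. A CCAAT box stood in 6 of the 8 windows, against 33.8% of all windows, and a GC box in 7 of the 8, against 32.7%. The CCAAT box closest to the start lay 45 bases before it in Hmgcs1, 14 in Idi1 and 55 in Ebp. A match is a match of letters and not evidence of binding.

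The question of the main comparison is whether each region of the KO brain holds more or less transcript of these enzymes than its WT counterpart. In hippocampus the log2 difference, KO minus WT, was below 0 for 9 of 9 enzymes, with a median of -0.48, against 0.02 over all 8382 probe sets, of which 45.3% were below 0. In cortex 8 of 9 were below 0 with a median of -0.33 (all probe sets 0.00, 49.5% below 0), and in cerebellum 8 of 9 with a median of -0.25 (all probe sets 0.03, 44.3% below 0), or 9 of 9 with median scaling or quantile normalization, where Ebp turned to -0.07 and -0.00. Without KO animal 3363, 9 of 9 were below 0 in hippocampus, 7 of 9 in cortex, where Fdft1 (0.06) and Sqle (0.23) lay above 0, and 6 of 9 in cerebellum, where Hmgcs1 (0.05), Cyp51 (0.04) and Ebp (0.10) did. None of the 9 passed limma's test at an adjusted p of 0.05 in any region. The calls over all probe sets were few as well: 0.119% in hippocampus, 0.0358% in cerebellum and 0.286% in cortex. At an unadjusted p under 0.05, 5 enzymes lay lower in KO hippocampus, 2 in KO cerebellum and 3 in KO cortex, where 3.85%, 5.76% and 5.17% of all probe sets did. The differences below are therefore given as values, with adjusted p from limma over all kept probe sets.

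Hmgcs1 and Idi1, both early in the pathway, had the largest differences in hippocampus and cortex, although in cortex Ebp (-0.53) had the largest without KO animal 3363. Hmgcs1, the cytosolic HMG-CoA synthase that makes the precursor of mevalonate, read 564, 709 and 604 in KO hippocampus, against 1107, 986 and 1013 in WT hippocampus. All KO hippocampi lay well below all WT hippocampi. The means were 626 ± 74.8 in KO and 1036 ± 63.6 in WT (SD, n = 3 each), and the log2 difference was -0.73 ± 0.17 (SE, 95% interval -1.09 to -0.38), or 39.8% lower, with an adjusted p of 0.124. In KO cortex Hmgcs1 read 528, 779 and 981, against 967, 1120 and 997 in WT cortex. KO animal 3403 sat within the WT range there, so the groups overlapped, and the log2 difference was -0.47 ± 0.17 (adjusted p = 0.304). Cerebellum gave almost the same level in both genotypes, 636, 795 and 777 in KO and 874, 657 and 762 in WT, a log2 difference of -0.05 with an interval of -0.41 to 0.30.

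Idi1 encodes isopentenyl diphosphate isomerase, which interconverts both isoprenoid building blocks. It read 170, 237 and 231 in KO hippocampus, against 386, 391 and 320 in WT hippocampus. In KO cortex it read 146, 229 and 304, against 369, 379 and 318 in WT cortex. Every KO value lay under every WT value in both regions. The log2 difference was -0.79 ± 0.22 in hippocampus (42.2% lower, adjusted p = 0.250) and -0.71 ± 0.22 in cortex (38.9% lower, adjusted p = 0.243). KO cerebellum read 231, 382 and 379, against 404, 383 and 383 in WT cerebellum. There the groups were separate only by a margin of about 1 signal unit, with animals 3389 and 3403 at the WT level and animal 3363 far under it, and the log2 difference was -0.27 ± 0.22 (adjusted p = 0.656). Idi1 was thus the one enzyme whose KO signals lay below all WT signals in all 3 regions, a pattern met by 12 probe sets, or 0.143% of those kept.

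Fdps, farnesyl diphosphate synthase, makes the isoprenoid at which the sterol and prenylation branches part. Its signal was 464, 503 and 534 in KO hippocampus, against 656, 662 and 661 in WT hippocampus, where the WT animals were nearly identical. The log2 difference was -0.40 ± 0.12 (24.3% lower, adjusted p = 0.337), and the groups did not overlap. They did overlap in cerebellum (509, 597 and 600 in KO, 651, 598 and 764 in WT, log2 difference -0.24) and in cortex (448, 446 and 560 in KO, 635, 489.8 and 499.8 in WT, log2 difference -0.16). The other Fdps probe sets did not all follow. One gave -0.29, -0.11 and 0.08 in hippocampus, cerebellum and cortex, a dim one gave 0.16, -0.14 and 0.60, and the last was too dim to be kept. On those that were kept the groups overlapped in every region, hippocampus included.

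Of the squalene steps, Fdft1, which encodes squalene synthase, read 277, 329.6 and 331 in KO hippocampus, against 316, 407 and 351 in WT hippocampus, with overlap and a log2 difference of -0.19. Its largest difference was in cerebellum, with 187, 243 and 192 in KO against 247, 225 and 329 in WT. That log2 difference was -0.36 ± 0.16 (unadjusted p = 0.0412, adjusted p = 0.388), and KO animal 3389 lay among the WT animals. In cortex the log2 difference was -0.05, with signals of 303 to 427 in KO and 331 to 418.5 in WT.

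Sqle, squalene epoxidase, which adds the oxygen needed for ring closure, read 300.5, 458 and 403 in KO hippocampus, against 474, 460.5 and 689.6 in WT hippocampus. The groups were separate, by a narrow gap, with a log2 difference of -0.48 ± 0.18 (adjusted p = 0.477), or -0.31 without KO animal 3363 and -0.29 without WT animal 3396. Animal 3396 stood above the other WT animals. In cerebellum it was 485, 579 and 581 in KO and 653, 448 and 679 in WT, a log2 difference of -0.10. Cortex was the one place where an enzyme other than Ebp had a difference above 0: 447, 532 and 540.1 in KO against 427, 472 and 469.8 in WT, a log2 difference of 0.15 ± 0.18 with an interval of -0.23 to 0.52.

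Of the sterol steps, Cyp51, the demethylase that acts on lanosterol, had the largest hippocampal difference. Its signal was 46.9, 64.4 and 70.8 in KO hippocampus, against 102, 94.6 and 84.5 in WT hippocampus. The groups were separate, and the log2 difference was -0.64 ± 0.25 (36.0% lower, adjusted p = 0.507). They were also separate in cortex, at 54.0, 61.7 and 57.7 in KO and 75.3, 83.0 and 67.5 in WT, with a log2 difference of -0.38 ± 0.25 (adjusted p = 0.644). Cerebellar signals spread widely in both genotypes (53.8, 85.8 and 113 in KO, 102, 124 and 68.9 in WT, log2 difference -0.25).

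Nsdhl, a dehydrogenase in the removal of further methyl groups, read 165, 158 and 176 in KO hippocampus, against 208, 203 and 190.0 in WT hippocampus. The groups were separate there, although the log2 difference of -0.27 ± 0.14 was small (adjusted p = 0.648). In cerebellum it read 153, 168 and 122 in KO and 165, 168.5 and 206 in WT (log2 difference -0.29), and in cortex 156, 191 and 200.1 in KO and 243, 196 and 201 in WT (-0.23). The groups overlapped in both. Another Nsdhl probe set gave -0.49, -0.30 and -0.30 in hippocampus, cerebellum and cortex, and the last gave -0.05, -0.08 and -0.21. On the former the groups were separate in hippocampus and in cerebellum but not in cortex. It read 72.4, 87.2 and 91.0 in KO cerebellum and 100, 99.5 and 107 in WT cerebellum. On the last the groups overlapped in every region.

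Ebp, the sterol isomerase that moves a double bond of the ring, had its largest difference in cortex. It read 81.5, 77.7 and 64.1 in KO cortex, against 96.8, 100.4 and 108.5 in WT cortex. All KO cortices lay below all WT cortices, with means of 74.4 ± 9.16 in KO and 102 ± 5.99 in WT (SD, n = 3 each) and a log2 difference of -0.46 ± 0.15 (27.3% lower, adjusted p = 0.255). In hippocampus it read 89.4, 92.4 and 80.1 in KO and 97.0, 91.7 and 83.3 in WT. Cerebellar signals were higher in both genotypes, at 122, 159.5 and 136 in KO and 148, 145 and 120.5 in WT. In neither did the groups separate, and the log2 differences were -0.06 and 0.01.

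Dhcr7, the reductase of the final step to cholesterol, read 45.8, 93.3 and 68.0 in KO cerebellum, against 92.7, 115 and 88.9 in WT cerebellum. Its log2 difference there, -0.57 ± 0.24 (32.6% lower, unadjusted p = 0.0302, adjusted p = 0.348), was the largest of the 9 enzymes in cerebellum, although KO animal 3389 lay within the WT range. Without animal 3363 it was -0.30, and Nsdhl (-0.32) then had the largest. Hippocampus gave 64.3, 103 and 76.3 in KO and 126, 112 and 99.6 in WT, and cortex 61.4, 94.0 and 68.9 in KO and 97.7, 106 and 76.2 in WT. The groups overlapped in both, through animal 3389, with log2 differences of -0.49 and -0.33.

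**Figure D1:**
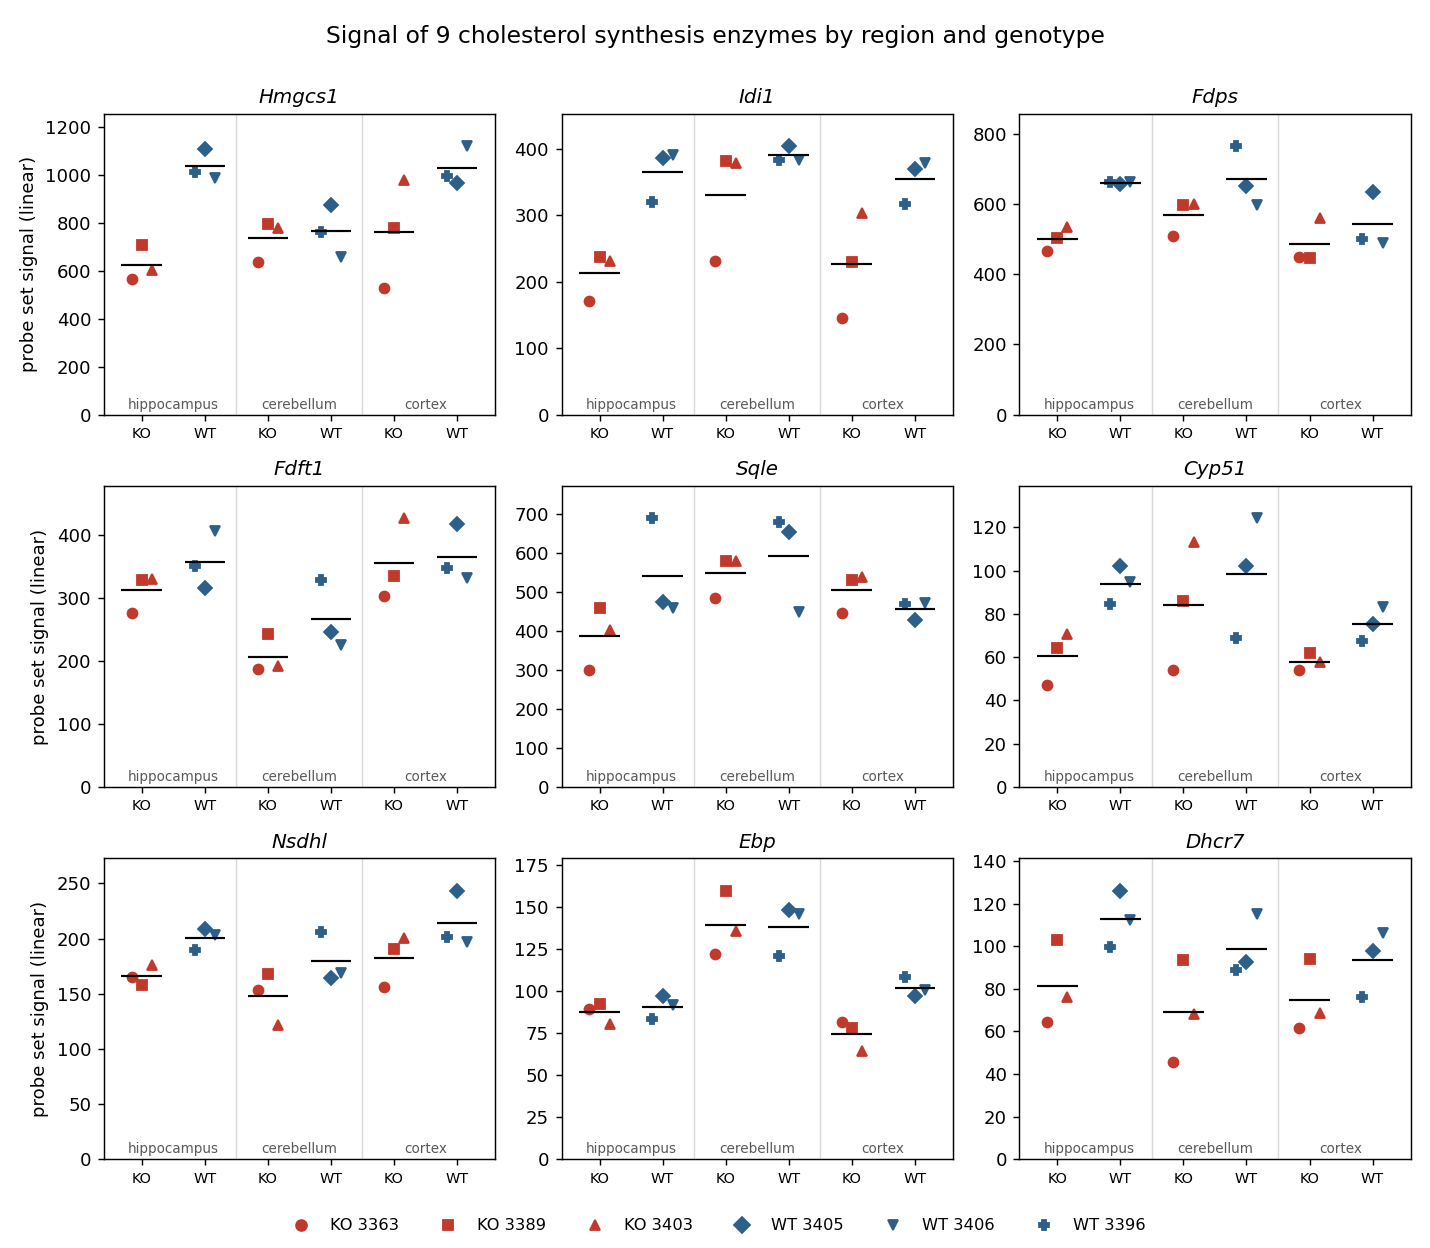
Signal (scaled intensity, linear axis from 0) of each enzyme on every array, 1 symbol per animal, by region, with KO left of WT and the group mean as a line. Hmgcs1 and Idi1 lie apart in hippocampus, Ebp only in cortex, and most cerebellar groups overlap.

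**Figure D2:**
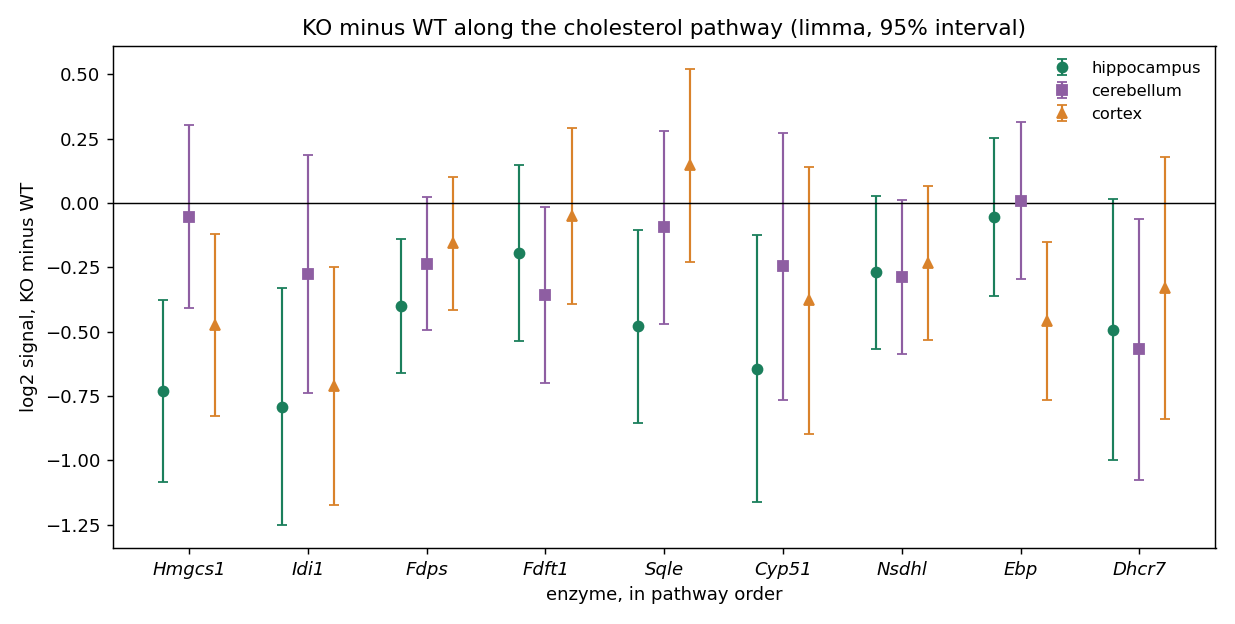
Log2 difference, KO minus WT, with its 95% interval, for the 9 enzymes in pathway order in each region. Hippocampal values run from -0.79 (Idi1) to -0.06 (Ebp), and cortical values from -0.71 (Idi1) to 0.15 (Sqle).

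Along the pathway, then, all KO signals lay below all WT signals for 6 of 9 enzymes in hippocampus (Hmgcs1, Idi1, Fdps, Sqle, Cyp51 and Nsdhl), against 6.94% of all probe sets. In cortex this held for 3 of 9 (Idi1, Cyp51 and Ebp, background 7.18%) and in cerebellum for 1 (Idi1, background 7.8%). These counts use the brightest probe set of each enzyme. In cerebellum the groups were also separate on another Nsdhl probe set, and in hippocampus they overlapped on other probe sets of Fdps and Nsdhl. No enzyme had all KO signals above all WT signals in any region. Idi1 and Cyp51 had this separation in both hippocampus and cortex, as 0.787% of probe sets did. An exact permutation test of one enzyme cannot reach a p under 0.1 with 3 animals in each group.

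KO animal 3363 was the lowest of the 3 KO animals in 22 of 27 pairs of enzyme and region, and the lowest of all 6 animals in 19 of 27. No share over all probe sets was taken for the former, and the pairs share the arrays of 1 animal. Animal 3363 was the lowest of 6 for 7 enzymes in hippocampus, 6 in cerebellum and 6 in cortex, against 19.4%, 13.3% and 19.4% of all probe sets. Its median over the 9 enzymes, relative to the WT mean, was a log2 difference of -0.80 in hippocampus, -0.39 in cerebellum and -0.45 in cortex. KO animal 3389 stood at -0.35, -0.07 and -0.27 and KO animal 3403 at -0.40, -0.04 and -0.09 in the same order. Single WT animals lay between -0.09 and 0.08, but the WT mean is their own, which draws their values toward it. Without animal 3363 the median over the enzymes was -0.34 in hippocampus (-0.48 with it), -0.20 in cortex (-0.33 with it) and -0.04 in cerebellum (-0.25 with it). In hippocampus Hmgcs1 was then at -0.66 (adjusted p = 0.0732, range over all alternatives 0.0636 to 0.561) and Idi1 at -0.64 (adjusted p = 0.103, range 0.103 to 0.723). In cortex, Hmgcs1 moved to -0.23 and Idi1 to -0.43, while Ebp stood at -0.53 (adjusted p = 0.327, range 0.175 to 0.519). In cerebellum, Idi1 was at -0.04, Hmgcs1 at 0.05, Cyp51 at 0.04 and Dhcr7 at -0.30 without this animal.

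**Figure D3:**
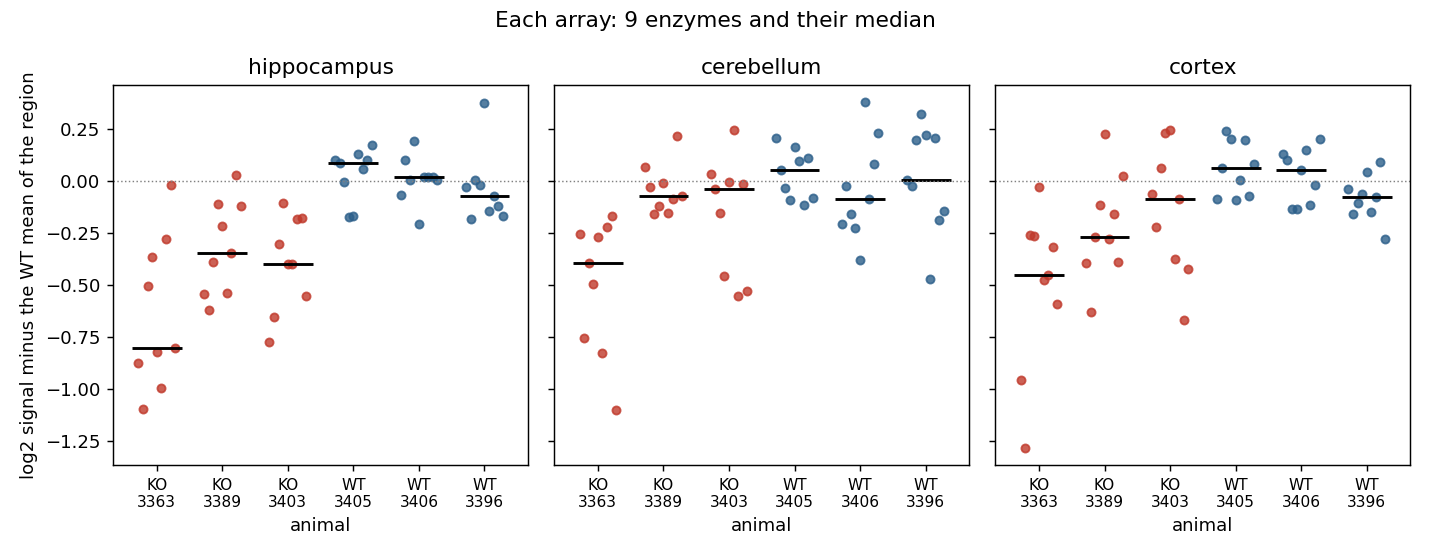
Log2 signal of each enzyme minus its WT mean, for each animal and region, with KO animals left of WT animals and the median of the 9 enzymes as a bar. Animal 3363 is the lowest KO animal in each region, at medians of -0.80, -0.39 and -0.45, and in hippocampus the other KO animals stand at -0.35 and -0.40.

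Averaged over the regions of each animal, 9 of 9 enzymes had a log2 difference below 0, with a median of -0.26 (all probe sets 0.02, 45.4% below 0). None passed the adjusted threshold, as 0.179% of probe sets did, and 6 had an unadjusted p under 0.05 in the lower direction, as 4.87% did. Idi1 had the largest difference (-0.59 ± 0.16, adjusted p = 0.319), followed by Dhcr7 (-0.46), Cyp51 (-0.42) and Hmgcs1 (-0.42 ± 0.11, adjusted p = 0.269). Without animal 3363 all 9 were still below 0, with Idi1 at -0.37, Dhcr7 at -0.28, Hmgcs1 at -0.28 and Cyp51 at -0.25. KO animals lay wholly below WT animals for 5 enzymes, Hmgcs1, Idi1, Fdps, Fdft1 and Nsdhl, against 7.02% of probe sets.

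Whether the KO difference varied with region was tested as a genotype by region interaction, with the animal as a block. None of the 9 enzymes passed limma's moderated F test, as 4 of 8382 probe sets did (0.0477%). The lowest unadjusted p were 0.0102 for Hmgcs1 (adjusted p = 0.341), 0.0153 for Sqle and 0.0160 for Idi1 (adjusted p = 0.379 for both). The larger hippocampal differences are thus not shown to differ from those of the other regions.

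Other measures also differed between KO and WT in some regions. Signals of oligodendrocyte and myelin genes, 10 of 15 listed with a probe set, summed to 4259 to 5474 in KO hippocampus, against 6507 to 10017 in WT hippocampus. The sums were 3552 to 4532 in KO cortex, against 6967 to 9010 in WT cortex, and 8122 to 8732 in KO cerebellum, against 8995 to 10315 in WT cerebellum. Cnp was the one of the 10 too dim to be kept. Of the 9 kept myelin genes, 3 fell in KO hippocampus, 7 in KO cortex and 0 in KO cerebellum at the adjusted threshold, with median log2 differences of -1.05, -1.40 and -0.18. Animal 3363 had a myelin sum of 5241 in hippocampus, between 4259 in animal 3389 and 5474 in animal 3403. Its sums in cortex (4532) and cerebellum (8732) were the highest of the KO animals. Microglial genes, 9 of 10 listed, summed to 1982 to 2639 in KO hippocampus, against 1900 to 1999 in WT hippocampus, which overlapped, and the 8 neuronal genes of 10 listed summed to 9746 to 10578 in KO and 10022 to 10853 in WT. The neuronal sum did not overlap in the other regions, with 8066 to 8634 in KO against 8938 to 10598 in WT cerebellum, and 10936 to 11525 in KO against 11617 to 12482 in WT cortex. Of the 8 neuronal genes, 8 had a log2 difference below 0 in cerebellum (median -0.26). In cortex 5 lay below 0 and 3 above (median -0.11), and the counts were the same in hippocampus (median -0.12). In cortex the summed signal of the 8 astrocyte genes of 11 listed also lay apart, at 4931 to 5528 in KO and 5665 to 5677 in WT. The genes themselves were split there: of the 7 kept, 4 had a log2 difference below 0 and 3 above, with a median of -0.08. The ratio of Gapdh signal at the 3′ end to that at the 5′ end, a sign of RNA integrity, was 0.797 to 0.812 in KO cortex, against 0.885 to 0.924 in WT cortex, and overlapped in the other regions. The same ratio for actin was 1.64 to 1.88 in KO cortex, against 1.69 to 1.93 in WT cortex, and overlapped in all 3 regions. The part of these in the enzymes' differences was not tested.

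The WT arrays show how each enzyme's signal differs between regions of the normal brain. On the brightest probe sets, the F test over WT regions called 4 of 9 enzymes, Ebp (adjusted p = 0.00914), Hmgcs1 (0.0204), Fdft1 (0.0396) and Fdps (0.0467), a share close to the 46.5% of all probe sets that it called. Sqle (0.0925), Cyp51 (0.227), Dhcr7 (0.274), Nsdhl (0.35) and Idi1 (0.568) did not pass on theirs. Of the other probe sets, a second one of Nsdhl passed (0.0184) and the last of Nsdhl did not (0.223), and a second one of Fdps passed (0.00583) and the dim one of Fdps did not (0.0646).

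Ebp was higher in WT cerebellum than in WT hippocampus, by a log2 difference of 0.60 ± 0.14 (adjusted p = 0.00548), and than in WT cortex, by 0.43 ± 0.14 (adjusted p = 0.0262). Hmgcs1 was lower in WT cerebellum than in WT cortex (-0.43 ± 0.14, adjusted p = 0.0189) and than in WT hippocampus (-0.45 ± 0.14, adjusted p = 0.0214). Fdft1 had the same order, at -0.47 ± 0.16 against cortex (adjusted p = 0.0280) and -0.43 ± 0.16 against hippocampus (adjusted p = 0.0495). Fdps (0.31 ± 0.11, adjusted p = 0.0335) and Sqle (0.36 ± 0.13, adjusted p = 0.0420) instead were higher in WT cerebellum than in WT cortex. Neither passed between WT cerebellum and WT hippocampus (Fdps 0.02, adjusted p = 0.920, and Sqle 0.13, adjusted p = 0.474). Of all probe sets, 43.2% passed between cerebellum and cortex and 31.1% between cerebellum and hippocampus. Between hippocampus and cortex, where 14.3% passed, no enzyme did on its brightest probe set, Fdps having the lowest p (0.30, adjusted p = 0.0902). Fdps passed there with median scaling (0.36, adjusted p = 0.0406) and without animal 3405 (0.42, adjusted p = 0.0473). A second Fdps probe set passed at 0.41 ± 0.09 (adjusted p = 0.0107) and also between cerebellum and cortex, at 0.33 ± 0.09 (adjusted p = 0.0118). The dim Fdps probe set stood at 1.14 ± 0.39 between hippocampus and cortex (adjusted p = 0.0637). A second Nsdhl probe set stood at -0.47 ± 0.16 there (adjusted p = 0.0647) and passed between cerebellum and cortex, at -0.58 ± 0.16 (adjusted p = 0.0103).

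These regional calls were sensitive to the settings and to single animals. Median scaling ended the calls of Hmgcs1 (F test adjusted p = 0.137, -0.26 against cortex, -0.33 against hippocampus) and of Fdft1 (0.159, -0.29, -0.32). It also brought a call of Sqle on the F test (0.0271), and of Idi1 (0.31) and Cyp51 (0.52) between cerebellum and cortex. Quantile normalization ended those of Fdps (F test 0.0954, 0.25 against cortex) and of Sqle against cortex (0.29). The F test called 1 enzyme (Ebp) without the filter, 1 (Ebp) without the intensity trend and 2 (Ebp and Fdft1) without the animal block. It called 2 when animal 3363, 3389, 3396 or 3405 was left out, 3 without 3403 and 1 (Sqle) without 3406. Ebp passed it in all settings except without 3405 (adjusted p = 0.0525) and without 3406 (0.0792). Leaving out 3406 also ended the pairwise calls of Hmgcs1 (-0.27 against cortex and -0.38 against hippocampus), of Fdft1 (-0.42 and -0.23) and of Ebp (0.38 and 0.57), and that of Fdps (0.33), but not that of Sqle. Leaving out 3396 ended those of Hmgcs1 (-0.46 and -0.46), Fdps (0.16) and Sqle (0.27). Leaving out 3405 ended those of Ebp against cortex (0.34), of Fdft1 (-0.32 and -0.47) and of Sqle (0.23). Without a KO animal the WT differences stay as they are and only the pooled spread alters: Fdft1 against hippocampus and Sqle then missed the threshold for each of 3363, 3389 and 3403 (adjusted p between 0.0501 and 0.0711), as did Fdps without 3363 (0.0503).

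The rest of the pathway was read from a list of 12 further enzymes, of which 8 had a kept probe set. The others were not analysed here. None of them passed in any region, and 5 had a log2 difference below 0 in hippocampus (median -0.34), 4 in cerebellum (0.01) and 5 in cortex (-0.24). Msmo1, which removes sterol methyl groups beside Nsdhl, had the largest difference: 176 ± 74.5 in KO cortex against 273 ± 15.5 in WT cortex (SD, n = 3 each), -0.74 ± 0.26 on the log2 scale (adjusted p = 0.291). In hippocampus it was 200.3 ± 43.1 in KO and 269 ± 19.3 in WT, -0.45 ± 0.26, again with the groups apart. Mvd, the decarboxylase that makes isopentenyl diphosphate, gave -0.56, -0.25 and -0.49 in hippocampus, cerebellum and cortex, and Lss, which closes the ring of lanosterol, -0.34, -0.05 and -0.52. Sc5d, a late desaturase, gave -0.34, 0.10 and -0.29 (a second probe set -0.67, 0.08 and -0.34), and Hsd17b7, a ketoreductase partner of Nsdhl, -0.40, 0.46 and 0.39. Mevalonate kinase (Mvk) gave 0.10, -0.20 and -0.20. The sterol reductases Tm7sf2 (0.06, 0.07 and 0.08, and 0.22, 0.10 and 0.42 on a second probe set) and Lbr (0.09, 0.23 and 0.17) were above 0 throughout.

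Of the branches that leave the pathway after the isoprenoids, 4 of 8 listed genes were kept and none passed. Fntb, a subunit of protein farnesyltransferase, was at 22.6 ± 10.6 in KO hippocampus against 48.9 ± 8.09 in WT hippocampus (SD, n = 3 each), -1.23 ± 0.35 on the log2 scale (adjusted p = 0.283). In cerebellum it was at 55.2 ± 5.61 in KO and 93.3 ± 25.9 in WT, -0.72 ± 0.35 on the log2 scale (adjusted p = 0.428). Its partner subunit Fnta gave -0.41 ± 0.13 in cortex (adjusted p = 0.260). Dpagt1, the first enzyme to load sugar onto dolichol, gave 0.25 in hippocampus and 0.30 in cortex, and Ggps1, which makes geranylgeranyl diphosphate, -0.18 in cerebellum, where a second Ggps1 probe set gave 0.16.

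Regulators of the pathway could be read for only 2 of 7 listed genes. Srebf2, the other SREBP gene, as well as Scap, Insig2 and Mbtps2 had no probe set assigned to them alone, and Insig1 was not kept. Srebf1, an SREBP gene, had log2 differences of 0.24, 0.12 and -0.09 in hippocampus, cerebellum and cortex, and Mbtps1, the protease that makes the first cut in SREBP, of -0.25, -0.10 and 0.06, none past the threshold. Genes of cholesterol uptake, export, storage and turnover, 12 of 19 listed, had medians of -0.02, -0.04 and -0.11 in the same order, and none passed. The exporter Abca1 was at 257 ± 78.1 in KO cerebellum and 172 ± 15.7 in WT cerebellum (SD, n = 3 each), 0.54 ± 0.18 on the log2 scale (adjusted p = 0.244). Another Abca1 probe set gave 0.15 there. Abcg1, also an exporter, and Npc1, which moves cholesterol out of lysosomes, gave 0.25 and -0.22 in hippocampus, Npc2, its lysosomal partner, 0.18 in cerebellum and -0.17 in cortex, and Osbp, a sterol-binding protein, -0.24 in cortex.

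Fatty acid synthesis and desaturation, which SREBP factors also drive, was read through 9 of 13 listed genes, with medians of -0.14, -0.06 and -0.19 and none past the threshold on its brightest probe set. Elovl6, a fatty acid elongase, was at 188 ± 14.1 in KO hippocampus and 283 ± 21.0 in WT hippocampus (SD, n = 3 each), -0.59 ± 0.13 on the log2 scale (adjusted p = 0.112). A second Elovl6 probe set gave -0.09 there. The desaturase Scd2 gave -0.59 ± 0.13 in cortex (adjusted p = 0.0624) and a second Scd2 probe set -0.04. Scd1, a related desaturase, gave -0.30 in hippocampus and -0.43 in cortex (adjusted p = 0.291). A less bright Scd1 probe set passed in cortex, with -1.11 ± 0.19 (adjusted p = 0.00830), and the last, dim one gave 0.46 ± 0.63 there. In cerebellum the lowest p belonged to the desaturase Fads1, at -0.55 ± 0.14 (adjusted p = 0.141), and to the citrate lyase Acly, at -0.27 ± 0.10 (adjusted p = 0.269).

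**Figure D4:**
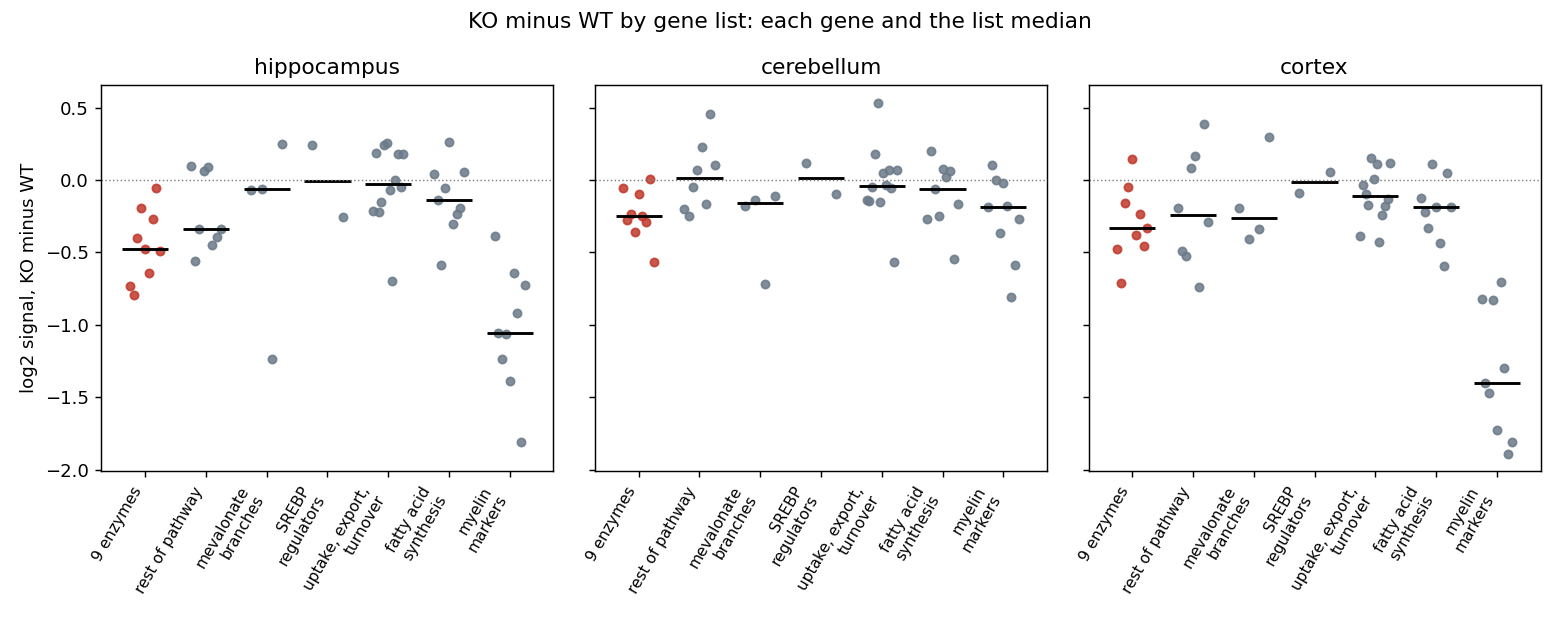
Log2 difference, KO minus WT, of the kept genes of each list by region, myelin markers last, 1 point per gene, with the median as a bar. The median of the 9 enzymes is -0.48, -0.25 and -0.33 in hippocampus, cerebellum and cortex, and that of the rest of the pathway -0.34, 0.01 and -0.24.

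The 9 enzymes varied together to unequal degrees. Over the 18 arrays, with each region's mean removed, the Pearson correlation of an enzyme with the mean of the other 8 was 0.939 for Idi1, 0.840 for Hmgcs1, 0.794 for Fdps and 0.780 for Dhcr7. It was 0.696 for Cyp51, 0.623 for Nsdhl, 0.571 for Fdft1, 0.453 for Sqle and 0.296 for Ebp. The arrays share animals and genotype, so these are descriptions. With the mean of each group removed, which takes out genotype, Idi1 kept 0.900 and Hmgcs1 0.707, and Ebp had -0.03. The genes outside the 9 whose region-centred signal was most like the mean of the enzymes were Trp53inp2 (0.905), Acaa1b (0.884), Tubb5 (0.865), Msmo1 (0.846), Itm2a (0.842), Dennd5a (0.838), Gamt (0.835), Taldo1 (0.835), Tubb3 (0.825) and Ugt8a (0.821). Msmo1 is the only one of these 10 that is also on the list of further pathway enzymes. Ugt8a is on the list of oligodendrocyte and myelin genes, with log2 differences of -0.92, -0.81 and -1.30 in hippocampus, cerebellum and cortex.

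Hmgcs1 and Idi1 both lie on chromosome 13, as does Aldh5a1, the gene that KO mice lack. The annotation places 183 protein-coding genes between Idi1 and Aldh5a1 and 606 between Hmgcs1 and Aldh5a1. The strain background is not given, so linked alleles and the loss of Aldh5a1 cannot be told apart for these genes.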

How the data were processed

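Each sample had 1 array, and the deposited value of a probe set is a linear intensity. The authors had scaled them to a common 2% trimmed mean (150.07 to 150.08 on the 18 arrays) before they were deposited, judged from the values themselves; the sources used here do not name the software. Region was taken from the sample titles, since hippocampus stands as the source label of all samples. Replicates are separate animals per the labels. Median signal per array was 53.5 to 64.8, replicate arrays correlated with r of 0.955 to 0.976, and the number of arrays limits the precision.

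Of 12488 probe sets, 66 controls were left out. Signals under 9.46, the 20th percentile of all values, were raised to it before log2 was taken, and probe sets above their array's 40th percentile on at least 3 arrays were kept, 8382 in all. In the platform annotation 10833 probe sets carry 1 symbol (10817 of them in the RefSeq table), 396 carry more than 1, and 1193 are unnamed.

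limma 3.58.1 (R 4.3.3), with an intensity trend, was fitted to 6 group means on all 18 arrays (12 residual degrees of freedom) for KO minus WT, and to 1 mean per animal (4) for the mean of regions. Interaction and WT regions were tested with a fixed effect of animal (8). P-values are two-sided, were adjusted by Benjamini-Hochberg across the kept probe sets, and were read at 0.05. The animal pairs arrays across regions, as the labels state: residuals of 1 animal's arrays correlated with a median of 0.135 (12 of 18 pairs over 0.1), against -0.0179 between animals. Scripts were tested on simulated data. Alternatives were other scaling, floor, filter and trend settings, fits on each region's own 6 arrays, the animal as a random block, and each animal left out.

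All 9 enzymes are named with values. Of the other lists, genes that passed are named in each region, and failing any, those 2 with the lowest p. Cell type markers are instead given as sums, and the myelin, neuronal and astrocyte genes also as counts. All kept genes are named for the rest of the pathway, as are the 10 genes of highest correlation. Members and lists were chosen with earlier results of these data known.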

Additional observations from a re-analysis of the deposited data

How the results depend on the processing

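None of the 9 enzymes passed the adjusted threshold in any KO minus WT comparison under any alternative run, and the adjusted p of Hmgcs1 in hippocampus ranged from 0.0636 to 0.561. With the animal as a replicate block the medians over the enzymes stayed at -0.48, -0.25 and -0.33, and 0 enzymes passed. Leaving out 1 animal at a time, the medians ranged from -0.61 to -0.34 in hippocampus, -0.29 to -0.036 in cerebellum, -0.43 to -0.20 in cortex and -0.33 to -0.24 for the mean of regions. The cause of the changes below was not tested.

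Counts over all probe sets moved more. In hippocampus 10 were called, against 1 on the region's own 6 arrays and 3 to 22 leaving out 1 animal. In cerebellum 3 were called, against 9 with the 60th percentile filter, 15 with median scaling, 5 with no filter, 1 with no trend, 0 on its own arrays, and 0 to 132 leaving out 1 animal (132 without 3405). In cortex 24 were called, against 3 on its own arrays and 6 to 31 leaving out 1 animal. For the mean of regions the count was 15, against 23 with median scaling, 5 with no filter, 1 with no trend and 3 to 27 leaving out 1 animal. The interaction called 4, against 2 with no filter, 0 with no trend and 0 to 6 leaving out 1 animal. Enzymes called between WT regions numbered 4, against 1 with no filter, 1 with no trend, 2 with no replicate block and 1 to 3 leaving out 1 animal.

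Differences near 0 changed sign. In KO minus WT, Ebp in cerebellum (0.01) turned to -0.066 with median scaling and -0.0049 with quantile normalization. Leaving out 1 animal at a time, it ranged from -0.094 to 0.0996 in cerebellum and -0.115 to 0.0058 in hippocampus. In the same way Cyp51 ranged from -0.49 to 0.044, Hmgcs1 from -0.157 to 0.049 and Sqle from -0.285 to 0.014 in cerebellum, and Fdft1 from -0.19 to 0.056 in cortex. Between WT regions, Fdft1 in hippocampus minus cortex turned to 0.028 with median scaling and Fdps in cerebellum minus hippocampus to -0.022 with quantile normalization. Leaving out 1 animal, hippocampus minus cortex ranged from -0.196 to 0.153 for Fdft1 and -0.080 to 0.110 for Hmgcs1, and cerebellum minus hippocampus from -0.078 to 0.099 for Fdps, -0.146 to 0.197 for Cyp51 and -0.030 to 0.221 for Sqle.

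The standard errors of the enzymes' log2 differences within a region ran from 0.12 for Fdps to 0.25 for Cyp51.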
